A study of Homo sapiens with 36 samples.

Results

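The genes described here build cholesterol and fatty acids, or regulate and move sterols, and they were followed in hNSC, a commercial line of human neural stem cells. They were chosen by name: 37 names were listed, MSMO1 and SC4MOL are names of the same gene, and SC5DL was found under its current symbol SC5D, which leaves 36 genes among the 28516 gene symbols of the count table. All 36 were among the 19689 genes with at least 10 reads over all 36 libraries, so all of them were tested. The study set the transcription factors MEIS1 and MEIS2 up or down to find the genes they control. In MEIS1-OE, MEIS2-OE and ctrl-OE, cells received lentiviruses for CRISPR activation, in which a catalytically dead Cas9 carrying the VP64 activator and an MS2-coupled helper protein (MPHv2) is led to a promoter by a guide RNA. In MEIS1-KO, MEIS2-KO and ctrl-KO, cells received lentiCRISPRv2, a single construct with a cutting Cas9 and the guide RNA, with a mix of 2 guides per MEIS gene. Guides in ctrl-OE and ctrl-KO were non-targeting. Each condition had 6 libraries of polyadenylated RNA taken 48 h after infection. No drug selection is described, so each value averages a bulk population that may hold cells without virus or edit, and fewer cells of a type cannot be told apart from less RNA per cell. The labels number the replicates but do not say that they were separate cultures, so p-values measure the spread between these libraries only.

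Cholesterol is made from acetyl-CoA in the mevalonate pathway, which ends in farnesyl diphosphate, and in the steps that turn squalene into lanosterol and then cholesterol. The transcription factors SREBP-1 and SREBP-2 (genes SREBF1 and SREBF2) switch on nearly all of these enzymes, and also those that make and desaturate fatty acids. When sterols are plentiful, INSIG proteins hold the SREBP escort SCAP in the endoplasmic reticulum. When sterols run low, SCAP carries the SREBPs to the Golgi, where proteases release the active factor. INSIG1 is itself a target of SREBP, whereas the efflux pumps ABCA1 and ABCG1 respond to LXR, the receptor for oxysterols. In the nervous system cholesterol does not arrive from the blood, so neural cells depend on making their own or on taking it up from neighbouring cells.

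SREBPs bind a short sterol regulatory element, usually beside a CCAAT box bound by NF-Y. Promoter sequences (RefSeq, GRCh38.p14, 250 bases before to 50 after a start site) were at hand for 31 of the 36 genes; ACAT2, SQLE, FASN, FDFT1 and ABCG1 had none. A CCAAT box, searched on both strands, was found for 21 of the 31 genes (67.7%), beside 39.7% of all 27305 genes in the table and 42.2% of the 12244 tested ones in it. The element TCACNCCAC, searched on both strands, was found only for SREBF2 among the 31 genes (3.23%), beside 1.39% of all genes. The 250 bases before the start are shown for the 5 genes with the largest decreases between the controls for which a promoter was at hand, and for SREBF2. They lie at chr11:121292521-121292770 (plus strand), chr5:43313413-43313662 (minus strand), chr10:100346983-100347232, chr7:155297628-155297877 and chr1:155308616-155308865 (all plus strand) and chr22:41832855-41833104 (plus strand). Capitals mark CCAAT or its reverse complement ATTGG, and in SREBF2 the sterol regulatory element.
SC5D: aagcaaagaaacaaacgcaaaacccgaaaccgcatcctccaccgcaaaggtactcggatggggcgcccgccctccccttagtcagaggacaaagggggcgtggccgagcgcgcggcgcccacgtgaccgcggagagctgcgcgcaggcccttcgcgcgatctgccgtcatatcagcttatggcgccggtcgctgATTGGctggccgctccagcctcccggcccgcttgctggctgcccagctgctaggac
HMGCS1: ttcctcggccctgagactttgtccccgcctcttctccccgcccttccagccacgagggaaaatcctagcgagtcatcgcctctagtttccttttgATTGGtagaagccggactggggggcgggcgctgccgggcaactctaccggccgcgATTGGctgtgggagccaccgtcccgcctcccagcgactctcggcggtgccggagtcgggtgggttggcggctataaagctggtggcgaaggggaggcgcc
SCD: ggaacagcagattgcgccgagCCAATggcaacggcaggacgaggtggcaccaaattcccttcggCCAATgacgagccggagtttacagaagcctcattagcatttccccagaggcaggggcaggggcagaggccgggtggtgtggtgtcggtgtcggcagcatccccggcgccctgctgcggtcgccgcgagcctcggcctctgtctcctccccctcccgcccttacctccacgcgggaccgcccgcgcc
INSIG1: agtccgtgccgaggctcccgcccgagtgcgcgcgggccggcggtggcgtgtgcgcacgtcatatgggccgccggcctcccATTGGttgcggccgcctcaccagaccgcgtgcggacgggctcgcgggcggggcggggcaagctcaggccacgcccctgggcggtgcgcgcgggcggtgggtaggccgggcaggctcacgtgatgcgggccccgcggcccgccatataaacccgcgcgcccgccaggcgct
FDPS: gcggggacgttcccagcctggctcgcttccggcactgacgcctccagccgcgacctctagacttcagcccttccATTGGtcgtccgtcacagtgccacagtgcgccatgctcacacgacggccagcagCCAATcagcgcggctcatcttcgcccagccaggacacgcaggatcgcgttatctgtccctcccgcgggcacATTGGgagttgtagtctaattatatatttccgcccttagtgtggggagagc
SREBF2: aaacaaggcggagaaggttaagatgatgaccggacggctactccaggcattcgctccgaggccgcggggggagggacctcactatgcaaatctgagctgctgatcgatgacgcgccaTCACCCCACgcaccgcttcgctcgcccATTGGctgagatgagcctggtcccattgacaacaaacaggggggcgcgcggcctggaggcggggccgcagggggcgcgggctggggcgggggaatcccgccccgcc
Counted from the start site shown, the CCAAT boxes lie at -176, -122 and -51 in FDPS, at -155 and -100 in HMGCS1, at -229 and -186 in SCD, at -170 in INSIG1 and at -56 in SC5D. HMGCS1 and SC5D each had another start site, not shown. From it the box of SC5D lies at -137, and in HMGCS1 its window held no CCAAT box. SREBF2 has the element at -133 and a CCAAT box at -106. These matches describe letters only, and the absence of a match says nothing about binding.

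Library totals ran from 15429985 to 22940493 reads, with a median of 20324720. MEIS1 had a mean of 310 CPM (counts per 1e+06 reads, after TMM scaling) in MEIS1-OE against 17.8 in ctrl-OE, and 8.96 in MEIS1-KO against 25.7 in ctrl-KO. MEIS2 had 824 CPM in MEIS2-OE against 22.6 in ctrl-OE, and 12.1 in MEIS2-KO against 25.8 in ctrl-KO, so both targets moved as labelled. All 8 neural stem cell markers examined were above 1 CPM in every condition, among them NES and SOX2. Of the markers of other cell types, the neuronal gene RBFOX3 peaked at a condition mean of 0.0175 CPM, and the pluripotency genes POU5F1 and NANOG at 0.155 and 0.0487. LIN28A and DPPA4, listed with them, were expressed throughout. Tests below compared counts with edgeR's quasi-likelihood method in 1 fit of all conditions, and a gene was called when its p-value, adjusted over all 19689 genes, was below 0.05.

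Per kilobase of annotated exon, the most abundant of the 36 genes in ctrl-KO were SCD (312 CPM per kilobase), the main Δ9 desaturase, HMGCS1 (230.5), which condenses acetoacetyl-CoA with acetyl-CoA, and ACAT2 (179), the cytosolic thiolase that makes acetoacetyl-CoA. The squalene synthase FDFT1 (145) and the farnesyl diphosphate synthase FDPS (139.5) followed. SCD, HMGCS1 and ACAT2 also headed the order in ctrl-OE, at 140.3, 102.5 and 100.2 CPM per kilobase. At the low end stood ABCA1 at 2.11 and AACS, which activates acetoacetate, at 2.06 CPM per kilobase in ctrl-KO. ABCG1 was close to absent, with at most 7 reads in any library. SREBF2 (51.6 CPM per kilobase) was far above SREBF1 (2.48), so on this scale the SREBP-2 transcript prevailed in these cells.

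**Figure D1:**
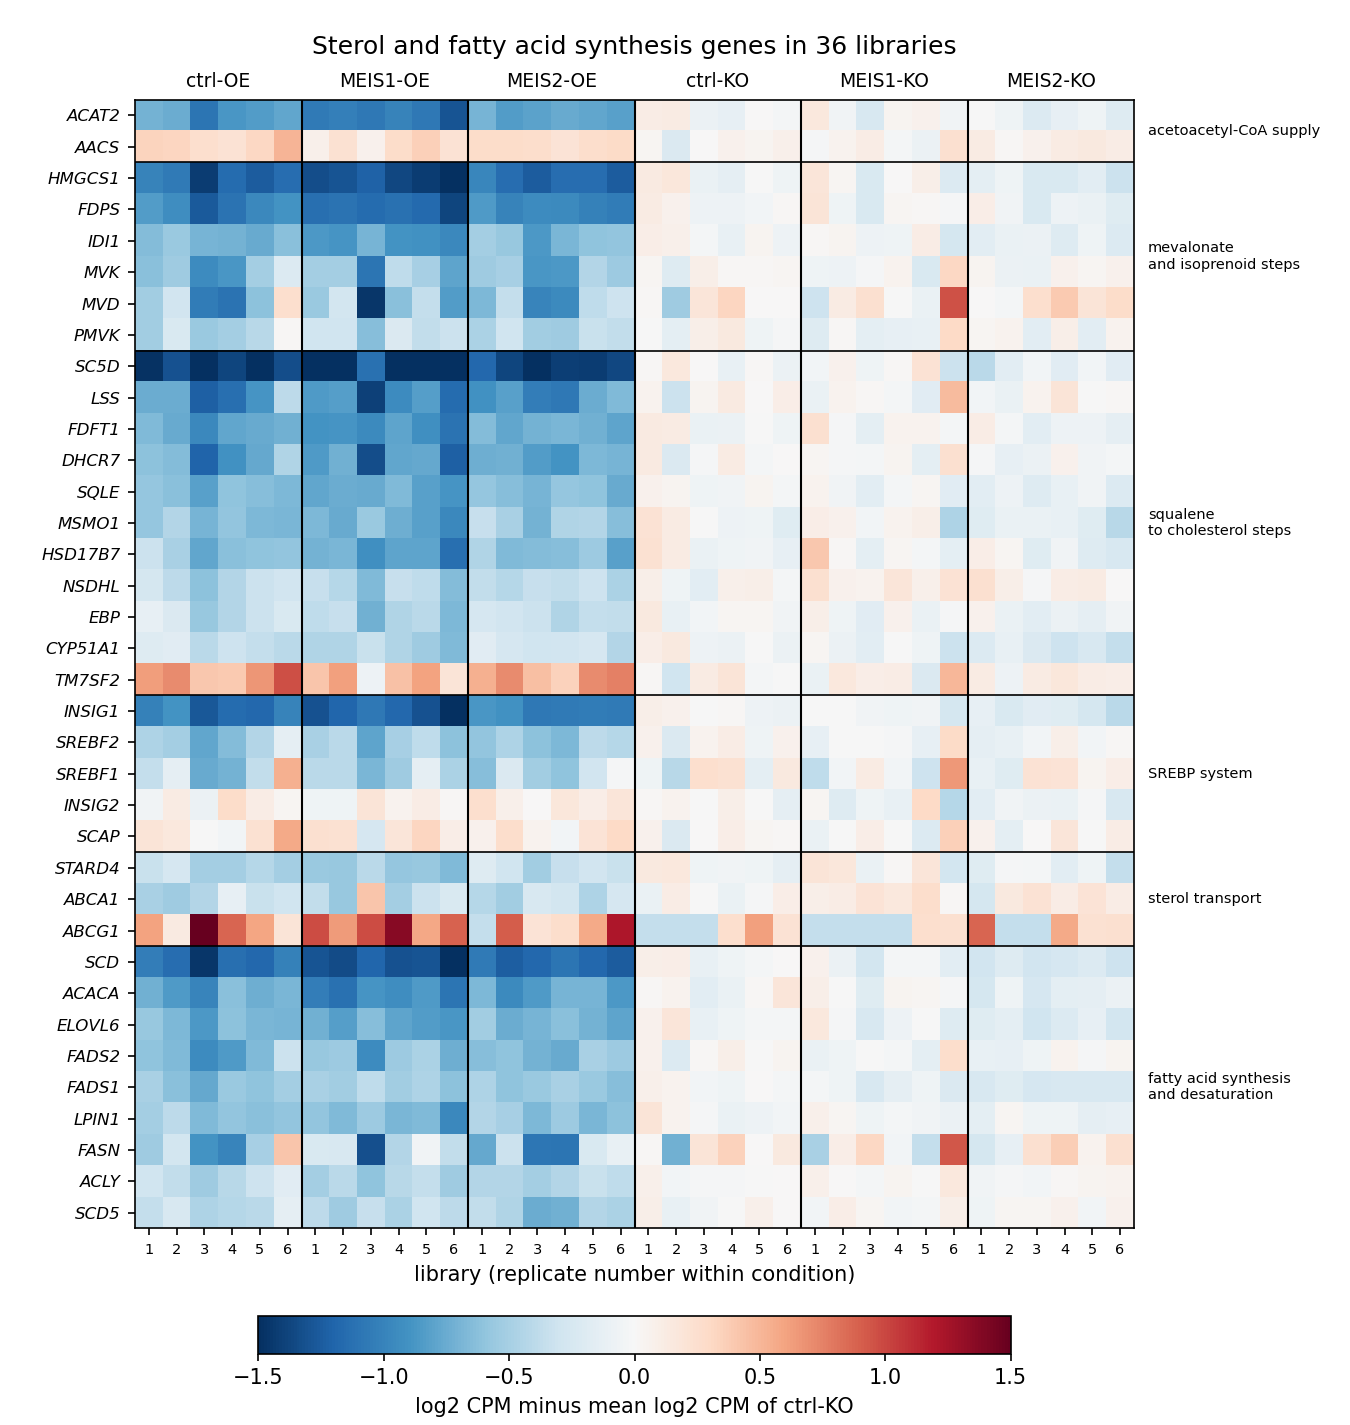
Each row is a gene, each column a library, and the colour is log2 CPM minus the gene's mean in ctrl-KO, clipped at -1.5 and 1.5. Columns are grouped by condition and rows by role. Most rows are blue in all 18 OE libraries. AACS and TM7SF2 are the clearest red exceptions, TM7SF2 not in every OE library. SCAP and INSIG2 are slightly above ctrl-KO by the means of the OE conditions. ABCG1, also red by mean, rests on at most 7 reads per library.

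The largest differences lay between the controls, which differ in the CRISPR system and share non-targeting guides. No library came from cells without virus, so a decrease in ctrl-OE cannot be told apart from an increase in ctrl-KO. For this comparison, words such as fell, rose, lowered and raised describe ctrl-OE relative to ctrl-KO only. In ctrl-OE 29 of the 36 genes were lower than in ctrl-KO, and AACS and TM7SF2 were higher. Over all tested genes 23.9% were lower and 27.5% higher in this comparison, and 55.9% had an unadjusted p below 0.05, against 33 of the 36. The median log2 difference of the 36 genes was -0.57, against 0.05 for all tested genes. Under the further requirement of a log2 difference beyond 0.58, 17 of the 36 remained lower and 1 higher, beside 9.15% and 13% of all genes. Each library of ctrl-OE was below each library of ctrl-KO for 26 of the 36 genes, beside 16% of all genes.

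All 6 enzymes of the mevalonate and isoprenoid steps were lower in ctrl-OE than in ctrl-KO. HMGCS1 ranged from 570 to 762 CPM in ctrl-OE (median 687) and from 1385 to 1710 in ctrl-KO (median 1486). The groups were far apart, with a log2 difference of -1.17 (SE 0.073, adjusted p = 1.43e-16). FDPS, which joins isoprene units into farnesyl diphosphate, ranged from 217 to 291 CPM (median 268) against 491 to 562 (median 514), a log2 difference of -0.995 (SE 0.063, adjusted p = 2.13e-16). The isomerase IDI1 differed by -0.67 (SE 0.055) and the mevalonate kinase MVK by -0.60 (SE 0.10), and in both every library of ctrl-OE was the lower. The kinase PMVK and the decarboxylase MVD differed less, by -0.36 (SE 0.086) and -0.51 (SE 0.19), and their groups overlapped. For MVD the adjusted p of 0.0282 was lost in 6 of 20 alternatives, among them the one without ctrl-OE replicate 3. At the entry of the pathway ACAT2 fell by 0.84 on the log2 scale (SE 0.059), from a median of 467 to 269 CPM, whereas AACS rose by 0.32 (SE 0.057). In ACAT2, 22.2% of the exon bases are shared with annotation on the other strand, TCP1 included. The strand setting of the counting is not given in the sources used here. HMGCS1 shares 37.7% of its exon bases with annotation on the other strand. FDPS has 8 annotated pseudogenes named after it, among which its reads could be split.

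Of the 11 enzymes from squalene to cholesterol 10 were lower in ctrl-OE than in ctrl-KO and 1 was higher. SC5D, the lathosterol oxidase that introduces the double bond at carbon 5 of the sterol ring, showed the largest decrease of all 36 genes. It ranged from 154 to 188 CPM in ctrl-OE (median 173) and from 431 to 523 in ctrl-KO (median 471), a log2 difference of -1.44 (SE 0.084, adjusted p = 2.44e-17). Lanosterol synthase LSS and squalene synthase FDFT1 followed at -0.83 (SE 0.11) and -0.77 (SE 0.056). DHCR7, which makes cholesterol from 7-dehydrocholesterol, fell by 0.75 (SE 0.092) and the squalene epoxidase SQLE by 0.65 (SE 0.045). The demethylation enzymes MSMO1, NSDHL and HSD17B7 differed by -0.62 (SE 0.078), -0.38 (SE 0.061) and -0.57 (SE 0.086), and the isomerase EBP by -0.31 (SE 0.0655), with 36.4% of its exon bases shared on the same strand. CYP51A1, the lanosterol demethylase, differed least of those lowered, by -0.30 (SE 0.058), with 68.2% of its exon bases shared with other annotated exons on the same strand. TM7SF2, a sterol C14 reductase, went the other way. It ranged from 70.2 to 105 CPM in ctrl-OE (median 83.7) and from 43.3 to 60.9 in ctrl-KO (median 53.7), without overlap, and its log2 difference was 0.63 (SE 0.11, adjusted p = 3.56e-06).

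**Figure D2:**
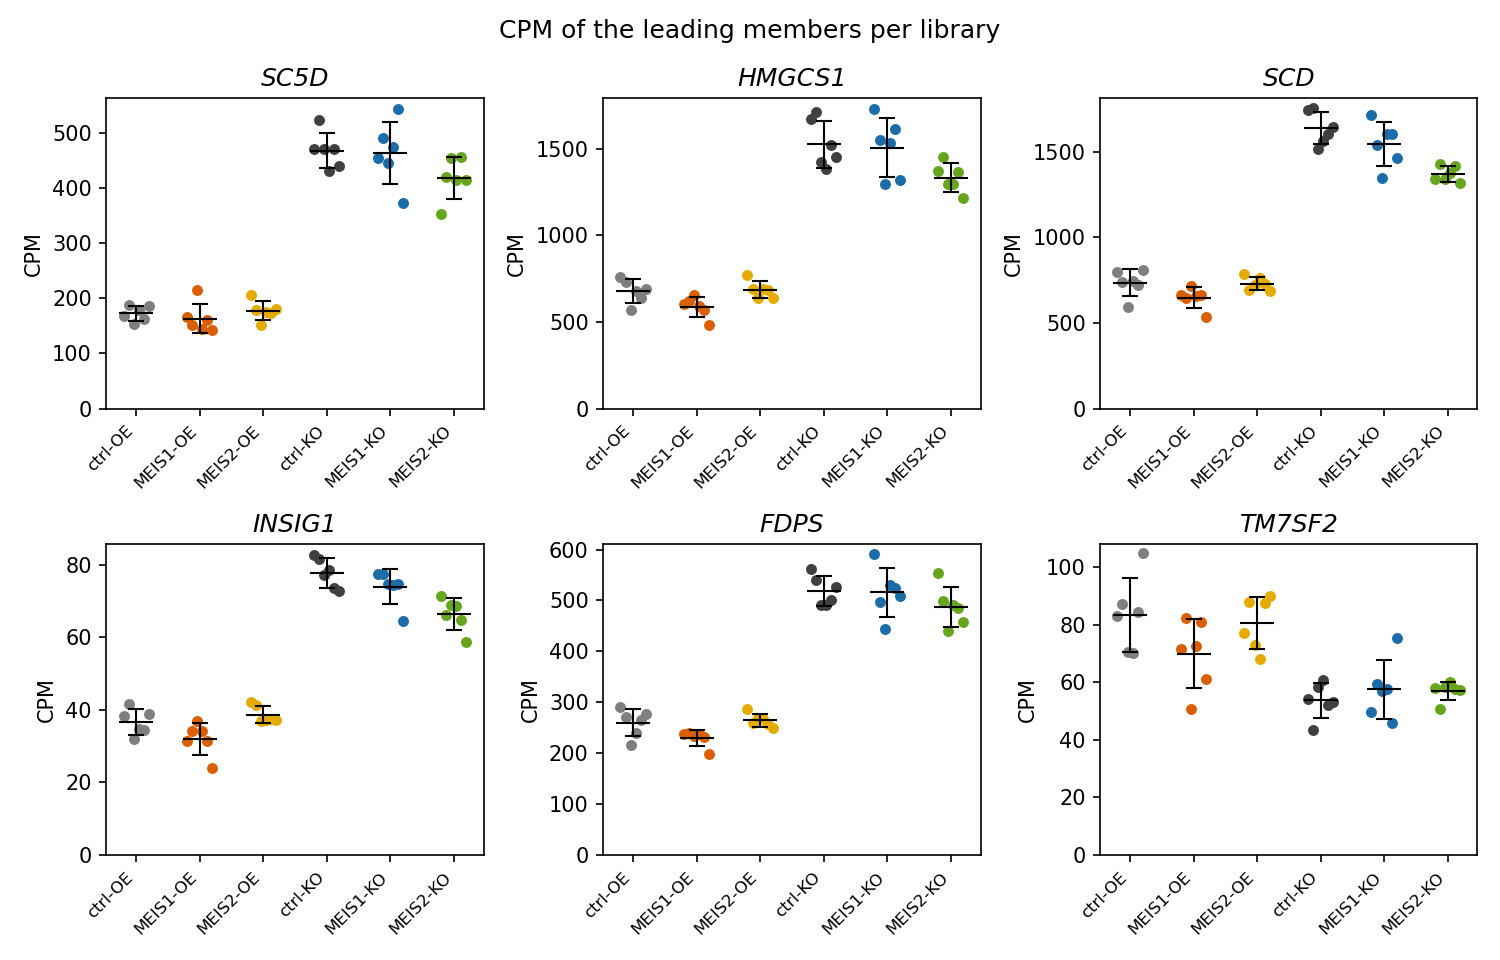
CPM per library (points), with the mean and SD over 6 libraries (bars), for the 5 called genes with the largest decreases between the controls and for TM7SF2, the called gene with the largest increase. For SC5D, HMGCS1, SCD, INSIG1 and FDPS the 3 OE conditions lie below the 3 KO conditions without overlap; TM7SF2 is higher in ctrl-OE than in ctrl-KO.

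The SREBP system itself moved in part. INSIG1, which retains SCAP in the endoplasmic reticulum, ranged from 32.1 to 41.7 CPM in ctrl-OE (median 36.6) and from 72.7 to 82.7 in ctrl-KO (median 77.9). Its log2 difference was -1.08 (SE 0.070, adjusted p = 5.21e-16). SREBF2 fell by 0.49 (SE 0.079, adjusted p = 2.15e-06), from a median of 432 to 296 CPM, with 5 of 6 libraries of ctrl-OE below all of ctrl-KO. INSIG2, SCAP and SREBF1 did not pass, with log2 differences of 0.07 (95% interval -0.09 to 0.23), 0.19 (0.01 to 0.38, adjusted p = 0.0707) and -0.25 (-0.59 to 0.08). Among transport genes STARD4, which carries cholesterol between membranes, differed by -0.42 (SE 0.071) and ABCA1, which exports it, by -0.37 (SE 0.11), a call that was lost with scaling by library totals alone. ABCG1 had 0 reads in 3 libraries of ctrl-KO and at most 2 in the others, too few for a comparison.

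Of the 9 genes of fatty acid synthesis and desaturation 8 were lower in ctrl-OE than in ctrl-KO and FASN did not pass. SCD ranged from 596 to 811 CPM in ctrl-OE (median 743) and from 1517 to 1751 in ctrl-KO (median 1623), a log2 difference of -1.15 (SE 0.062, adjusted p = 1.95e-18), the smallest p of the 36 genes. Acetyl-CoA carboxylase ACACA, which commits carbon to fatty acids, differed by -0.77 (SE 0.061) and the elongase ELOVL6 by -0.69 (SE 0.059). The polyunsaturated fatty acid desaturases FADS2 and FADS1 differed by -0.66 (SE 0.078) and -0.59 (SE 0.044), and the phosphatidate phosphatase LPIN1 by -0.56 (SE 0.058). ATP citrate lyase ACLY and the brain-expressed desaturase SCD5 differed by -0.35 (SE 0.045) and -0.33 (SE 0.058). FASN, the fatty acid synthase, spread from 162 to 427 CPM in ctrl-OE and from 195 to 407 in ctrl-KO, and its difference of -0.42 had a 95% interval from -0.87 to 0.03.

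The lower level was shared by all 3 OE conditions. For 20 of the 36 genes each of the 18 OE libraries was below each of the 18 KO libraries, beside 7.76% of all tested genes. For SC5D the OE libraries ran from 143 to 214 CPM and the KO libraries from 352 to 543. For INSIG1 the ranges were 23.9 to 42.3 and 58.8 to 82.7 CPM. The genes outside these 20 included CYP51A1, MSMO1, EBP, MVK, MVD and PMVK as well as SREBF1, SREBF2, FASN and the transport genes. The OE and KO conditions differ in several ways at once, namely 3 viruses against a single construct, the activator proteins and the form of Cas9, and their parts cannot be told apart. Other expression moved along the same division. The summed level of the 8 neural stem cell markers was 2874 to 4164 CPM over the OE libraries and 4334 to 5976 over the KO libraries. For the 4 pluripotency-associated markers it was 363.3 to 461.2 and 529.9 to 664.5 CPM, and for the 5 astrocyte markers 1.93 to 3.51 and 4.09 to 6.24. The sums overlapped for the neuronal markers (228.7 to 370.4 and 276.8 to 476.3 CPM), the oligodendrocyte lineage markers (25.3 to 33.3 and 32.3 to 39.4) and the mesenchymal markers (125.7 to 209.6 and 145.9 to 295.3). Each of the sums that separated rests mostly on its most abundant genes. By condition means these were VIM (1990 to 3070 CPM) and NES (909 to 1730), LIN28A (297 to 492) and S100B (1.36 to 3.86). DPPA4, also in the pluripotency list, stayed at 111 to 121 CPM. The part of these marker shifts in the lipid genes was not tested. Scaling by library totals alone raised the median of all genes from 0.05 to 0.195, changed the share of higher calls among all called genes from 53.5% to 71.2%, and put the median of the 36 genes at -0.42.

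In MEIS1-OE a small set of these genes was lower still. Against ctrl-OE 5 of the 36 were lower and 0 higher, beside 3.58% and 5.52% of all tested genes, and 31 of the 36 had a negative log2 difference, with a median of -0.13 against -0.0013 for all genes. At an unadjusted p below 0.05 there were 17, of which 16 were lower, beside 20.1% of all genes. For 0 of the 36 did all libraries of MEIS1-OE lie below all of ctrl-OE, beside 1.21% of all genes. ACAT2 ranged from 192 to 236 CPM in MEIS1-OE (median 226) and from 221 to 289 in ctrl-OE (median 269), a log2 difference of -0.25 (SE 0.059, adjusted p = 0.00354). The groups overlapped, because the lowest library of ctrl-OE reached into the range of MEIS1-OE. IDI1 had medians of 129 and 150 CPM and ACACA of 115 and 137 CPM, with log2 differences of -0.20 (SE 0.055, adjusted p = 0.014) and -0.22 (SE 0.061, adjusted p = 0.0176). HSD17B7 and CYP51A1 passed narrowly, at -0.27 (SE 0.088, adjusted p = 0.0438) and -0.18 (SE 0.059, adjusted p = 0.0498). HMGCS1, SCD, INSIG1 and FDPS had values of the same size, from -0.21 to -0.18, and adjusted p of 0.0591, 0.0519, 0.0745 and 0.068. The count depended on the method and on single libraries. It was 9 with RLE size factors, and 13 with DESeq2, with library totals alone and with a replicate block. It was 13 without ctrl-OE replicate 3, 2 without MEIS1-OE replicate 6, and 1 to 11 when a replicate number was left out of all conditions. ACAT2 was called in each of the 20 alternatives tried, and each gene called in any of them was lower.

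**Figure D3:**
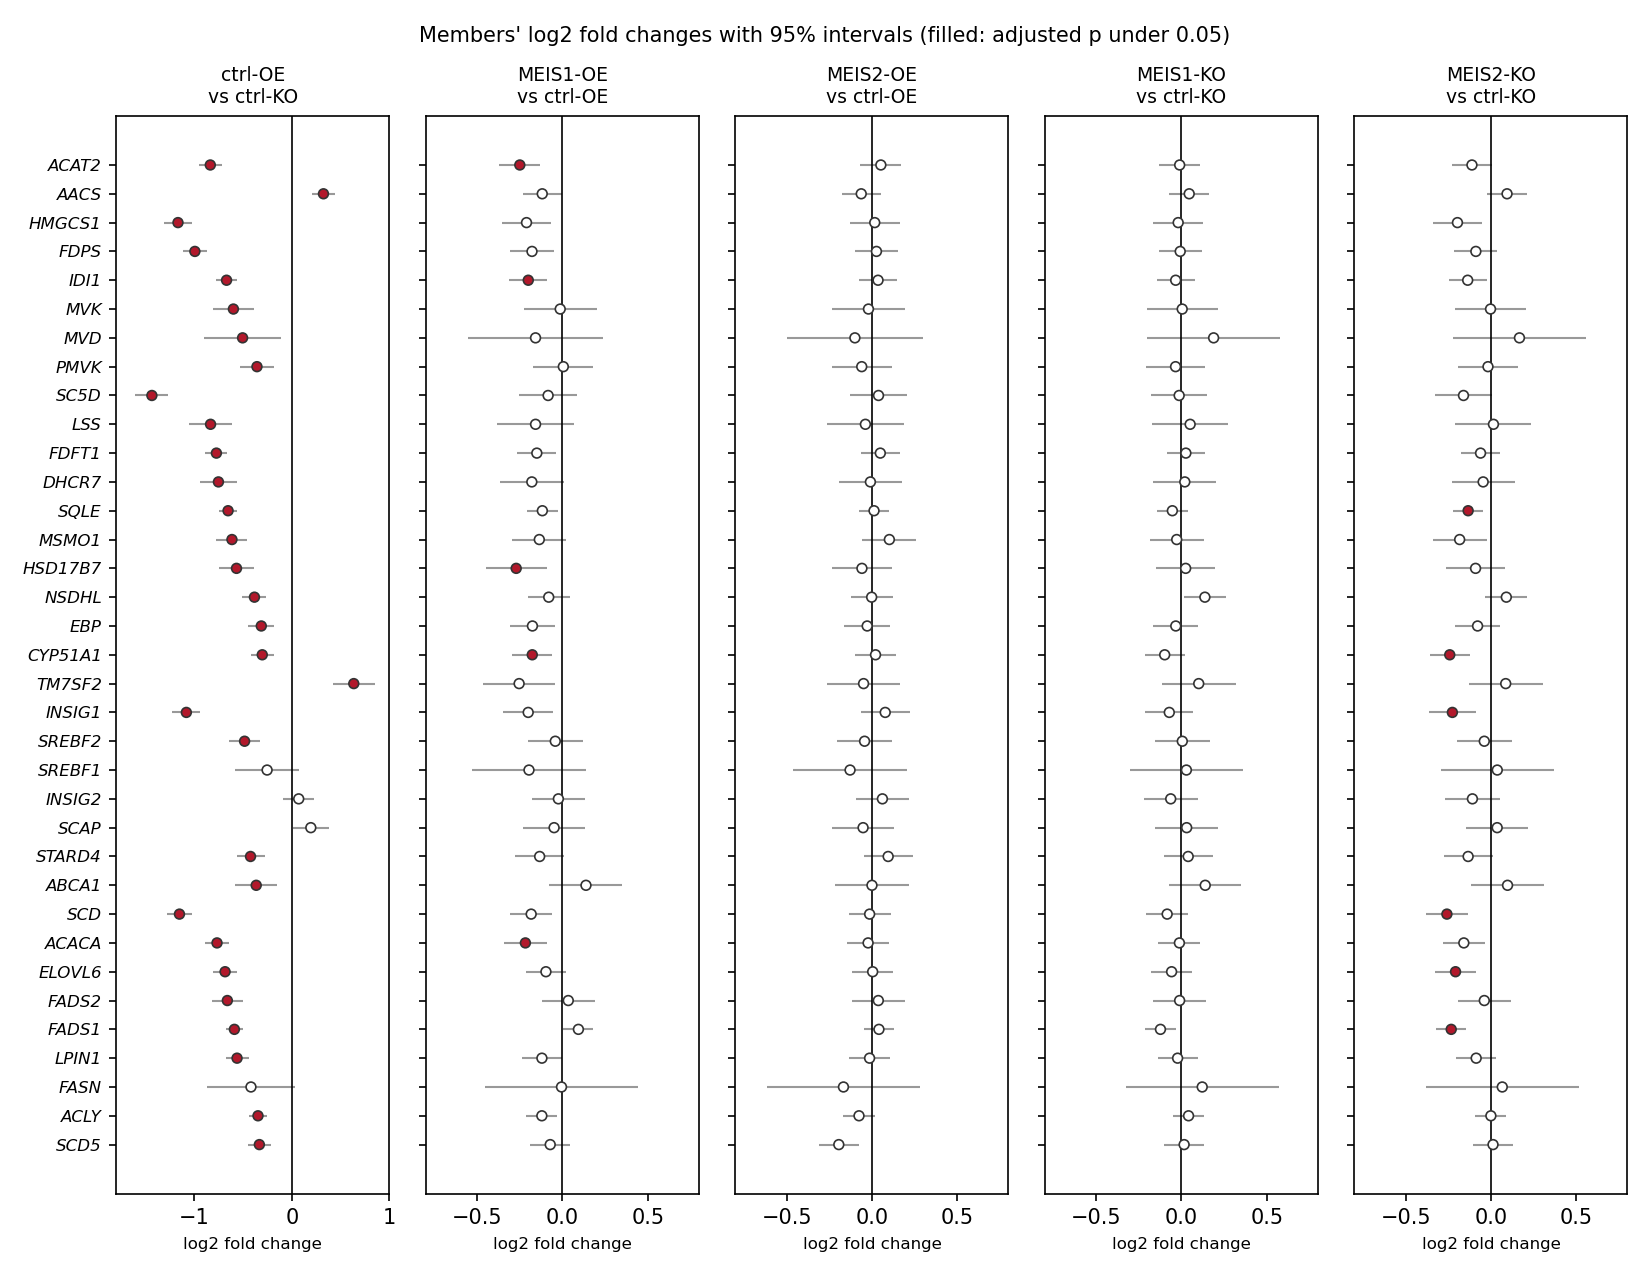
Log2 fold changes (points) with 95% intervals (lines) for 35 of the 36 genes in 5 comparisons; ABCG1, with at most 7 reads per library, is left out. Filled points passed the adjusted p of 0.05. The axis of the control comparison on the left is wider than that of the others.

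MEIS2-OE did not move these genes in the same way. Against ctrl-OE 0 of the 36 genes were called by edgeR, beside 1.07% higher and 0.279% lower over all genes. The 1 gene with an unadjusted p below 0.05 was SCD5, beside 7.64% of all genes. It ranged from 44.8 to 57.9 CPM in MEIS2-OE (median 54.4) and from 54.4 to 68.4 in ctrl-OE (median 57.6). Its log2 difference was -0.19 (SE 0.058, adjusted p = 0.113), and DESeq2 called it at an adjusted p of 0.0453. For HMGCS1 the interval of the difference was -0.13 to 0.16, and for SCD -0.14 to 0.11.

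The difference between the activations was tested directly, and their common control does not enter it. In MEIS1-OE 9 of the 36 genes were lower than in MEIS2-OE and 0 higher, beside 2.82% and 4.93% of all genes. For 4 of the 36 (11.1%), ACAT2, FDFT1, FDPS and INSIG1, each library of MEIS1-OE was below each of MEIS2-OE, beside 1.33% of all genes. ACAT2 ranged from 192 to 236 CPM against 264 to 291, a log2 difference of -0.30 (SE 0.059, adjusted p = 0.000395). IDI1 ranged from 122 to 148 CPM (median 129) against 132 to 168 (median 159), a difference of -0.24 (SE 0.055, adjusted p = 0.00328). INSIG1 ranged from 23.9 to 36.8 CPM (median 32.7) against 36.98 to 42.3 (median 37.3), a difference of -0.28 (SE 0.072, adjusted p = 0.00842). The other 6 were HMGCS1, FDPS, FDFT1, CYP51A1, STARD4 and ACACA, between -0.23 and -0.19. Leaving out MEIS1-OE replicate 6 reduced the count to 3, and leaving out a replicate number gave 3 to 13. ACAT2 and IDI1 were called in each of the 20 alternatives.

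Knockout of MEIS1 gave no call. Against ctrl-KO 0 of the 36 genes passed, by edgeR or by DESeq2, beside 1.03% higher and 0.432% lower over all genes. At an unadjusted p below 0.05 there were 2, beside 11.6% of all genes: FADS1 at -0.12 (SE 0.044, adjusted p = 0.181) and NSDHL at 0.14 (SE 0.060, adjusted p = 0.345). For HMGCS1 the interval was -0.16 to 0.13.

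In MEIS2-KO 6 of the 36 genes were lower than in ctrl-KO and 0 higher, a share that is to be read beside 5.98% lower and 4.04% higher over all genes. FADS1 ranged from 420 to 443 CPM in MEIS2-KO (median 426) and from 482 to 529 in ctrl-KO (median 497), without overlap, and its log2 difference was -0.23 (SE 0.044, adjusted p = 0.000517). SCD ranged from 1314 to 1428 CPM (median 1358) against 1517 to 1751 (median 1623), a difference of -0.26 (SE 0.061, adjusted p = 0.00487). CYP51A1 ranged from 93.4 to 110 CPM (median 102) against 113 to 132 (median 117), a difference of -0.24 (SE 0.058, adjusted p = 0.00587). FADS1 and SCD desaturate fatty acids, and CYP51A1 belongs to the sterol branch. ELOVL6, INSIG1 and SQLE followed at -0.21 (adjusted p = 0.0178), -0.23 (adjusted p = 0.0296) and -0.13 (adjusted p = 0.0467). Of the 20 alternatives SQLE was lost in 13, DESeq2 among them, INSIG1 in 7 and ELOVL6 in 2. At an unadjusted p below 0.05 there were 10 genes, all lower, beside 23.2% of all genes. For 5 of the 36 genes (13.9%), each library of MEIS2-KO was below each of ctrl-KO, beside 4.05% of all genes. These 5 were the called genes except SQLE. FADS1, SCD and CYP51A1 were called in each of the 20 alternatives, and without ctrl-KO replicate 2 they were the only ones. The knockouts compared with each other gave 0 calls, by edgeR or DESeq2, beside 0.0102% higher and 0.00508% lower over all genes. At an unadjusted p below 0.05 there were 8 genes, all higher in MEIS1-KO, beside 5.68% of all genes, so the difference between the knockouts was not detectable here.

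The study's own contrast subtracts the effect of knockout from that of activation. By it FADS1 was the only one of the 36 genes called, and it was higher both for MEIS1, at 0.22 (SE 0.062, adjusted p = 0.0388), and for MEIS2, at 0.27 (SE 0.062, adjusted p = 0.00743). Over all genes 2.35% were higher and 1.14% lower for MEIS1, and 1.39% and 1.18% for MEIS2. These contrasts share both controls. The components for MEIS1 were 0.09 in activation and -0.12 in knockout, and for MEIS2 0.04 and -0.23, so for MEIS2 most of the value came from the knockout. FADS1 overlaps its neighbour FADS2, annotated on the other strand of chromosome 11, and 4.79% of its exon bases are shared with other-strand annotation. The MEIS1 call was lost in 6 of 20 alternatives, among them those with RLE size factors and without MEIS1-OE replicate 3, and the MEIS2 call in 1, without replicate 5 of all conditions.

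Within conditions, the levels of the 36 genes varied with the base composition of their transcripts. For each library a GC tilt was computed as the mean log2 deviation from the condition mean of the 3154 genes richest in GC (at least 56.1%) minus that of the 3154 poorest (at most 41.5%), among genes averaging at least 1 CPM. It ran from -0.602 in MEIS1-OE replicate 3 to 0.599 in MEIS1-KO replicate 6. Over the 36 libraries, whose tilt and gene values come from the same reads, the deviations of FASN (65.3% GC) had r = 0.949 with the tilt, and those of MVD (63.7%) r = 0.937. Those of MSMO1 (37.4%) had r = -0.617 and those of CYP51A1 (41.05%) r = -0.66. Among the 12 genes above 55% GC, 11 had r above 0.5, FDPS being the exception at -0.141, and all 11 genes below 45% GC had negative r. Library spread differed by gene, with an SD within conditions on the log2 scale of 0.448 for the sparse ABCG1 (r = 0.118 with the tilt), 0.43 for FASN, 0.374 for MVD and 0.301 for SREBF1, against 0.0735 for FADS1 and 0.0748 for SQLE.

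**Figure D4:**
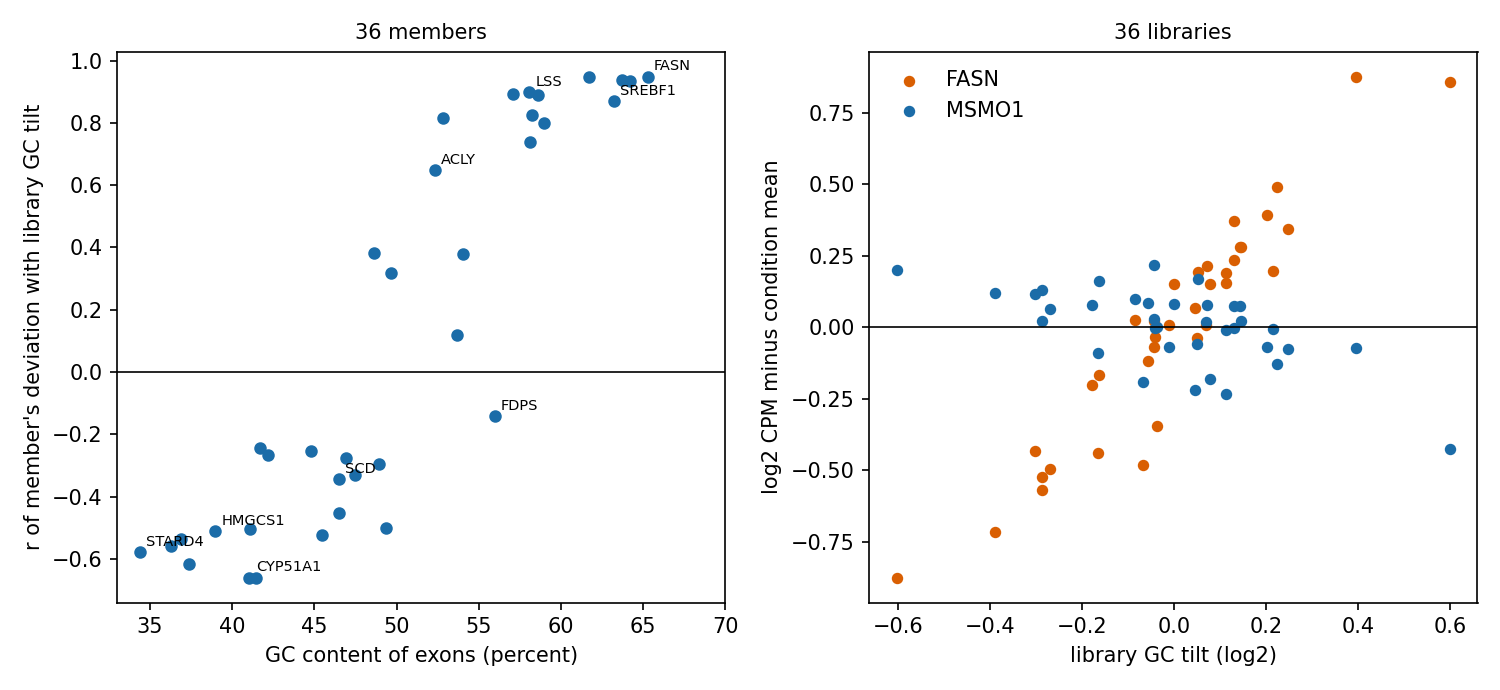
Left, for each of the 36 genes the GC content of its exons (percent) and the correlation of its deviations from the condition means with the GC tilt over 36 libraries. Right, log2 CPM minus the condition mean against the GC tilt (log2) per library, for FASN and MSMO1. FASN rises with the tilt and MSMO1 falls.

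The comparisons were repeated with the tilt removed, by offsets for 20 bins of GC content per library, an alternative chosen after seeing the data. Between the controls 31 genes were then lower and 2 higher, beside 26.4% and 29.7% of all genes. FASN and SREBF1 joined the lowered genes, at -0.68 (adjusted p = 3.6e-10) and -0.52 (adjusted p = 1.66e-07), and the increase of TM7SF2 shrank to 0.39 (adjusted p = 1.35e-09). In MEIS1-OE against ctrl-OE 19 of the 36 genes were lower and 0 higher, beside 7.73% and 7.51% of all genes. The 19 took in HMGCS1, FDPS, FDFT1, SQLE, LSS, DHCR7, EBP, TM7SF2, AACS, INSIG1, SREBF1, SCAP, ACLY and SCD besides the 5 called before. In MEIS1-OE against MEIS2-OE 15 were lower and 0 higher, beside 5.51% and 6.34% of all genes. In MEIS2-KO 7 were lower and 0 higher, beside 6.37% and 6.04% of all genes, with FADS2, SREBF2 and ACACA among them and without INSIG1 and SQLE. ELOVL6 shrank to -0.13 and CYP51A1 to -0.17, while FADS1 and SCD stood at -0.23 and -0.22. Without offsets, the median difference in MEIS2-KO was -0.106 for the GC-poorest genes and 0.106 for the GC-richest. No other comparison of a MEIS condition with its control had so wide a gap. MEIS2-OE gave 0 calls, beside 1.65% higher and 0.604% lower over all genes, and 3 genes at an unadjusted p below 0.05. In MEIS1-KO FADS1 alone was called, as lower, beside 1.61% lower and 2.45% higher. The MEIS1 contrast then called FADS1 as higher and ACAT2, ACLY and TM7SF2 as lower, beside 3.89% and 3.33% of all genes. The MEIS2 contrast called FADS1 and FADS2, both higher, beside 2.1% higher and 2.26% lower. These offsets also remove any true difference that follows GC content.

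Of 73 other lipid genes tested, 32 were higher and 18 lower in ctrl-OE than in ctrl-KO, beside 27.5% and 23.9% of all tested genes, and their median log2 difference was 0.14. The lowered ones with the smallest p were LPL, the lipoprotein lipase, at -2.05 (SE 0.072), TMEM97, the sigma-2 receptor, at -0.98 (SE 0.050), VLDLR, a lipoprotein receptor, at -0.83 (SE 0.068) and the elongase ELOVL5 at -0.57 (SE 0.051). The raised ones with the smallest p were the sterol exporter ABCG4 at 2.504 (SE 0.15), FADS3 at 2.10 (SE 0.14), LPIN3 at 0.999 (SE 0.076) and the acyl-CoA synthetase ACSL1 at 0.93 (SE 0.081). Of the 12 genes of SREBP processing, sterol sensing and degradation in the endoplasmic reticulum, 8 were higher, among them the SREBP proteases MBTPS1 and MBTPS2, and 3 lower.

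In MEIS1-OE against ctrl-OE 9 of the 73 other lipid genes were higher and 3 lower, beside 5.52% and 3.58% of all genes. The smallest p among the higher ones were those of VLDLR at 0.50 (SE 0.069, adjusted p = 9.02e-07), LPL at 0.48 (SE 0.071, adjusted p = 4.14e-06), ABCG4 at 0.67 (SE 0.10, adjusted p = 1.03e-05) and the receptor LRP8 at 0.24 (SE 0.053, adjusted p = 0.00151). Lower were ACACB, PTPLA and ACSL1. In MEIS2-OE LPL, LPIN2 and ERLIN1 were higher and ACACB lower, with LPL at 0.67 (SE 0.071, adjusted p = 1.24e-08), beside 1.07% and 0.279% of all genes. In MEIS1-KO LPIN3 and FADS3 were higher and PTPLB lower, beside 1.03% and 0.432% of all genes. In MEIS2-KO 5 were higher and 10 lower, beside 4.04% and 5.98% of all genes. By p the higher ones began with LPIN3 at 0.64 (SE 0.077, adjusted p = 9.48e-07) and ACSL5 at 0.87 (SE 0.14, adjusted p = 4.7e-05), followed by FADS3 and SOAT2, of which SOAT2 rests on at most 6 reads in any library. The lower ones began with ELOVL2 at -0.37 (SE 0.070, adjusted p = 0.000672), PTPLB at -0.36 (SE 0.071, adjusted p = 0.000803), VLDLR at -0.31 (SE 0.068, adjusted p = 0.00264) and FABP7, also among the neural stem cell markers, at -0.36 (SE 0.084, adjusted p = 0.0045). VLDLR and LRP8 rose with MEIS1 activation, in which 5 synthesis genes fell. Between the activations ABCG4, VLDLR and LRP8 were among 5 genes higher in MEIS1-OE, at 0.79, 0.45 and 0.24, and PTPLA, ERLIN1, ELOVL3 and LPIN2 among 5 lower, beside 4.93% and 2.82% of all genes. Of these ELOVL3 was sparse, with 10 to 18 reads per library in MEIS1-OE and 13 to 29 in MEIS2-OE. By the study's contrasts, which share both controls, LPL was higher for MEIS1 (0.57) and for MEIS2 (0.89), as was VLDLR (0.57 and 0.36), and FADS3 was lower for both (-0.67 and -0.83).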

How the data were processed

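The members and all gene lists were chosen with earlier results of these data known. RNA from cryopreserved cells was sequenced as stranded polyA libraries, and reads were aligned to hg19 by the authors. The authors deposited raw counts per gene symbol (HTSeq). Their processing notes name Trimmomatic and STAR, the aligner version differs between sources, and the annotation and strand setting are not given in the sources used here. Counts were compared as deposited with edgeR 4.0.16 (R 4.3.3): TMM scaling, genes with at least 10 counts in all, 1 quasi-likelihood fit of 6 conditions without covariates, and Benjamini-Hochberg adjustment. CPM values are TMM-scaled. DESeq2 1.42.0, other scalings and filters, a replicate block, left-out libraries and GC offsets (added after seeing the data) were alternatives. GC and exon length came from GENCODE lifted to GRCh37, which matched 87% of tested genes and all 36 members. The tests were checked on simulated counts. Every member is named, and up to 3 called members per comparison and direction with the smallest p are given in full. For other lipid genes up to 4 per direction are named, except for a result that is not reported here. Same-numbered libraries correlated only weakly over all genes, though the mean deviation of the sterol genes was positive in every replicate 1 and negative in every replicate 3. No libraries were duplicates.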

Additional observations from a re-analysis of the deposited data

Results flagged for a closer look

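In 26 of 216 sets of 6 libraries (36 genes in 6 conditions) the highest or lowest library stood apart from the rest by Dixon's criterion, where chance gives about 5% of sets. Genes of 1 library are not independent, so several fell in the same libraries. MEIS1-KO replicate 6, the library with the highest GC tilt (0.599), stood apart for MVD (110 CPM, others 45.8 to 67.5), LSS (308, others 196 to 230), SREBF2 (504, others 380 to 414) and FADS2 (1160, others 875 to 970) on the high side. It stood apart for MSMO1 (132, others 177 to 195) and INSIG1 (64.6, others 74.4 to 77.6) on the low side. ctrl-KO replicate 2, with a tilt of -0.388, was low for AACS (28.3, others 33.1 to 34.8), MVK (26.9, others 31.1 to 32.8), LSS (176, others 221 to 242), SCAP (79.2, others 92.5 to 99) and FADS2 (845, others 968 to 1030). MEIS1-OE replicate 3, with the lowest tilt, was high for IDI1 (148, others 122 to 132), SC5D (214, others 143 to 166) and ABCA1 (32, others 16.1 to 20.4).

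ctrl-OE replicate 6, with a tilt of 0.395, was high for AACS (47.1, others 38.2 to 41.5) and SREBF1 (29.2, others 11.9 to 18.3). MEIS1-OE replicate 6, whose tilt was 0.0464, was low for ACAT2 (192, others 224 to 236), FDPS (199, others 231 to 240) and LPIN1 (32.9, others 40.1 to 44.1). The part of the tilt in these values was not tested library by library. The remaining ones were AACS in MEIS2-OE replicate 4 (38.1, others 39.6 to 40.1), TM7SF2 and FADS1 in MEIS2-KO replicate 2 (50.7, others 57.1 to 60.1, and 443, others 420 to 426), MSMO1 in MEIS2-KO replicate 6 (136, others 160 to 170) and ABCA1 in MEIS2-KO replicate 1 (20, others 25.8 to 27.9). HSD17B7 in MEIS1-KO replicate 1 (54.6, others 37.3 to 42.3) and ABCG1 in ctrl-OE replicate 3 (0.291, others 0.0404 to 0.134) complete the list.

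Effects that differed between the MEIS genes or between activation and knockout were tested directly by edgeR's quasi-likelihood method with Benjamini-Hochberg adjustment. MEIS1-OE was lower than MEIS2-OE for ACAT2 (log2 difference -0.3, adjusted p = 0.000395), IDI1 (-0.24, adjusted p = 0.00328), INSIG1 (-0.28, adjusted p = 0.00842), FDFT1 (-0.2, adjusted p = 0.0183), CYP51A1 (-0.2, adjusted p = 0.0271), FDPS (-0.2, adjusted p = 0.033), STARD4 (-0.23, adjusted p = 0.0382), ACACA (-0.19, adjusted p = 0.0425) and HMGCS1 (-0.23, adjusted p = 0.0428). FADS1 differed between activation and knockout of MEIS1 (0.22, adjusted p = 0.0388) and of MEIS2 (0.27, adjusted p = 0.00743).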

How the results depend on the processing

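Of 6469 values of single genes recomputed, 6240 kept their side of the threshold, 136 gained and 93 lost significance. The sign changed in 356, and 0 of these were called with or without the alternative. The number of members called in MEIS1-OE against ctrl-OE (5) was 9 with RLE size factors, 13 with library totals alone, 13 with DESeq2, 13 with a replicate block, 3 when only the groups compared were fitted and 19 with GC-bin offsets; leaving out libraries gave 1 to 13. In MEIS1-OE against MEIS2-OE (9) GC-bin offsets gave 15 and left-out libraries 3 to 13. In MEIS2-KO against ctrl-KO (6) left-out libraries gave 3 to 6. Between the controls (31) they gave 30 to 34. The MEIS1 contrast (1) gave 0 with RLE, 0 with only the groups compared, 3 with a replicate block, 4 with GC-bin offsets and 0 to 2 with left-out libraries. The MEIS2 contrast (1) gave 4 with a replicate block, 3 with only the groups compared, 2 with GC-bin offsets and 0 to 3 with left-out libraries. In MEIS2-OE (0) DESeq2 gave 1, and in MEIS1-KO (0) GC-bin offsets gave 1. Requiring a log2 difference beyond 0.58 left 18 members between the controls and 0 in the other comparisons with calls. The cause of these shifts was not tested, except that the stricter rule removes calls by construction.

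Over all tested genes, same-numbered libraries correlated at a mean r of 0.0361 in their deviations, with 16 of 90 pairs above 0.1. Differently numbered libraries of different conditions had a mean r of -0.00732, with 51 of 450 pairs above 0.1. The replicate numbers were therefore not taken to pair samples in the main fit. The mean deviation of the 19 sterol genes was positive in replicate 1 and negative in replicate 3 of every condition, which the replicate block allows for. Single genes did not all follow it. In MEIS1-OE replicate 3, the library with the lowest GC tilt, 8 of the 19 were above their condition mean. In ctrl-KO replicate 3 the mean deviation was only -0.0166. The share of higher calls over all genes moved by over 10 points with library totals alone in MEIS1-OE (60.7% to 46.6%), MEIS2-KO (40.3% to 51%), between the controls (53.5% to 71.2%) and in the MEIS2 contrast (54.2% to 41.2%). Differences of about 0.2 on the log2 scale, as in the MEIS comparisons, are near the limit that 6 libraries and their spread allow, and ABCG1 was too sparse for any comparison.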

Other observations

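Beyond the GC tilt, some libraries deviated for nearly all synthesis genes at once. In ctrl-OE replicate 3, 0 of 19 genes of the acetoacetyl-CoA, mevalonate and squalene-to-cholesterol steps and 0 of 9 fatty acid genes were above their condition mean, with mean deviations of -0.228 and -0.222 on the log2 scale, while 47.1% of all genes were above theirs. Its tilt was -0.165. In ctrl-KO replicate 1, 18 of the 19 sterol genes and 9 of the 9 fatty acid genes were above the mean (0.0916 and 0.0764), at a tilt of -0.0424. In MEIS1-OE replicate 6, 2 of 19 and 2 of 9 were above it (-0.167 and -0.106). The mean deviation of the 19 sterol genes was positive in replicate 1 of every condition (0.0349 to 0.0916). In replicate 3 of every condition it was negative (-0.228 to -0.0166). For the 9 fatty acid genes it was also negative in every replicate 3 (-0.222 to -0.0138), and ran from -0.0803 to 0.0764 in replicate 1. Between pairs of the 19 sterol genes the deviations over 36 libraries had a median r of 0.368, with 115 of 171 pairs positive and a range from -0.555 to 0.96. These correlations describe libraries that share depth, base composition and handling, and carry no test.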
